A study of Mus musculus with 2 samples.

Results

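The monocyte-attracting CC chemokine genes Ccl2, Ccl7, Ccl8 and Ccl12 and the receptor gene Ccr2 were followed through 2 single-cell RNA libraries of mouse tissue labelled colon. The 5 genes were picked by symbol, and each matched 1 row of the 55357 features listed in both count files. 1 library has the genotype label RUNX3 wt (WT below) and the other RUNX3 ko (the library labelled KO below). The series text says that mice lacking RUNX3 carried tumour models, and that the question was how far natural killer (NK) cells enter colorectal tumours. The sources used here do not name the tumour model, the number, age and sex of the animals, the deleted part of the gene or any Cre line.

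CC chemokines are small secreted proteins that bind receptors coupled to G proteins and draw leukocytes along a gradient. CCL2, CCL7, CCL8 and CCL12 are known as monocyte chemoattractant proteins. CCR2 binds CCL2, CCL7 and CCL12 and is carried at high levels by Ly6C-high blood monocytes, which need it to leave the bone marrow and to enter inflamed gut and tumours. Mouse CCL8 is known to act mainly through CCR8. Resident macrophages usually carry less CCR2 than the monocytes they can arise from.

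The 4 ligand genes lie in the same direction within 81229 bp of chromosome 11 (GRCm38 coordinates from GENCODE M21). Ccl2 (ENSMUSG00000035385) is at chr11:82035571-82037453, Ccl7 (ENSMUSG00000035373) at chr11:82045712-82047525, Ccl12 (ENSMUSG00000035352) at chr11:82101845-82103400 and Ccl8 (ENSMUSG00000009185) at chr11:82115185-82116799, all on the plus strand. Ccl11 sits between Ccl7 and Ccl12. Ccr2 (ENSMUSG00000049103) is at chr9:124101950-124113557 on the plus strand. Paralogs can share reads, so the annotated transcripts were compared. Ccl2 and Ccl7 shared 4 runs of 20 bases, and no pair among the 5 genes shared a run of 30 bases.

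Ccl12 and Ccl8 are neighbours whose RNA differed between the libraries by unlike amounts, as given below, and the 250 bases before the annotated start of each are therefore shown. Both come from the RefSeq promoter table (GRCm38.p6), which has entries for 3 of the 5 genes, and both are on the plus strand. Ccl8 is shown from chr11:82114935-82115184 and Ccl12 from chr11:82101595-82101844. Capitals mark runs of at least 8 bases that the 2 windows share at places no more than 5 bases apart.
Ccl8: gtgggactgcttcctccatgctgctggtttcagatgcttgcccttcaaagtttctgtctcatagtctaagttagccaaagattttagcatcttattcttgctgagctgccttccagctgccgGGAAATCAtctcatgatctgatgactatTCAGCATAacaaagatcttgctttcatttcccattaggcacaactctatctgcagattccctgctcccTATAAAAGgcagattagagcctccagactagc
Ccl12: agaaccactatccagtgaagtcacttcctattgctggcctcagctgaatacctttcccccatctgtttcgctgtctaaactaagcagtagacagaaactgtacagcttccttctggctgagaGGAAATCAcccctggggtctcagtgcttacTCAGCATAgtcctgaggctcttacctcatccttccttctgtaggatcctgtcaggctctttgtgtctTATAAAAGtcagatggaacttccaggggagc
There are 3 such runs. GGAAATCA begins 128 bases before the start in both windows. TCAGCATA begins at -100 in Ccl8 and at -98 in Ccl12. TATAAAAG holds a TATA box match (TATAAAA) that begins at -32 in Ccl8 and at -31 in Ccl12, and 4.98% of 32851 promoter windows of this length hold that match on either strand. Searched on both strands, neither window held the letters TGANTCA (AP-1, in 6.75% of windows), TTCNNNGAA (GAS, in 7.02%), GAAA followed after any 2 bases by a further GAAA (ISRE core, in 2.98%) or the NF-kappaB motif (in 7.25%).

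The WT library kept 8343 cells with a median of 8281 UMIs (unique molecules counted), and the library labelled KO kept 5194 cells with a median of 9350.5. Each group is 1 library, so no difference below has a replicate check, no test was run, and every interval is a 95% interval for counting error alone. Runx3 transcripts stood at 255 UMIs per 1000000 (CPM) in WT and 192 CPM in the library labelled KO. By UMIs of Xist and of 4 Y-linked genes, 79.5% of WT cells were male-type and 0.012% female-type, against 24.1% male-type, 54.7% female-type and 8.07% with both kinds of UMI in the library labelled KO. Genotype and these sex types cannot be told apart at the level of the libraries, and values for male-type cells alone are given below. The libraries shared 17 cell barcodes. Cells were assigned to a gate by marker genes, which placed 82.0% of WT cells and 81.3% of those labelled KO. No cell passed the epithelial gate although the tissue label is colon: the 8 epithelial markers summed to 37.6 CPM in WT and 39.3 CPM in the other library.

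Over all cells, 3 of the 4 ligands stood at about 2 times the WT level in the library labelled KO, the remaining ligand was slightly higher and the receptor slightly lower. Ccl2 measured 514 CPM (509 to 519) in WT and 1087 CPM (1079 to 1096) in the library labelled KO, a ratio of 2.12 (2.09 to 2.14). Ccl7 went with it, at 392 and 772 CPM and a ratio of 1.97 (1.94 to 2.00). Ccl12 measured 177 and 372 CPM, a ratio of 2.11 (2.06 to 2.15). Ccl8, the ligand gene nearest to Ccl12, measured 111 and 131 CPM, a ratio of 1.18 (1.14 to 1.21). Ccr2 measured 374 and 323 CPM, a ratio of 0.864 (0.848 to 0.880).

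Of the 5 genes, 2 passed a 2-fold ratio in the higher direction over all cells (Ccl2 and Ccl12, computed after adding 5 CPM to both levels) and none in the lower. Of the 16329 genes with at least 50 UMIs, 0.288% passed it in the higher direction. The median log2 ratio was 0.97 over the 5 genes and -0.01 over all genes measured. Without the 1% of cells highest in the gene, the log2 ratio of Ccl8 was 0.53 in place of 0.22, and in male-type cells of both libraries it was 0.081. The log2 ratio of Ccr2 in female-type cells labelled KO against all WT cells was -0.088 in place of -0.21.

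Macrophage-gated cells (4808 in WT, 3102 in the library labelled KO) held most of the transcripts of all 5 genes. They made up 57.6% and 59.7% of the cells, with 62.3% and 63.9% of the UMIs of all genes, and held 75.4% of Ccl2 UMIs in either library. Their part of the Ccl7 UMIs was 82.0% and 83.9%, of the Ccl8 UMIs 85.7% and 89.2%, and of the Ccl12 UMIs 89.2% and 89.1%. Ccr2 was spread wider, with 73.3% of its UMIs in this gate in both libraries. The ratios within the gate were close to those over all cells: 2.07 (2.04 to 2.10) for Ccl2, 1.97 (1.93 to 2.00) for Ccl7, 1.19 (1.15 to 1.23) for Ccl8, 2.05 (2.01 to 2.10) for Ccl12 and 0.843 (0.824 to 0.862) for Ccr2. Here again 2 of the 5 genes passed a 2-fold ratio in the higher direction, against 0.321% of 14018 genes. Some markers of other cells also differed within the gate: the fibroblast list summed to 26.3 and 71.9 CPM, B or plasma to 4.88 and 45.1 CPM, neutrophil to 29.3 and 58.1 CPM and NK to 41.1 and 20.4 CPM, beside 9963 and 9465 CPM of macrophage markers. Their part in the ratios was not tested. The macrophages of each library leaned to different clusters: of those led by this gate, clusters 6, 2 and 1 were the largest in WT (1073, 842 and 821 cells) and clusters 5 and 20 in the library labelled KO (557 and 534 cells). With the WT make-up of gates imposed on both libraries, the log2 ratio of Ccl2 over all cells was 1.02 against 1.07 as measured.

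**Figure D1:**
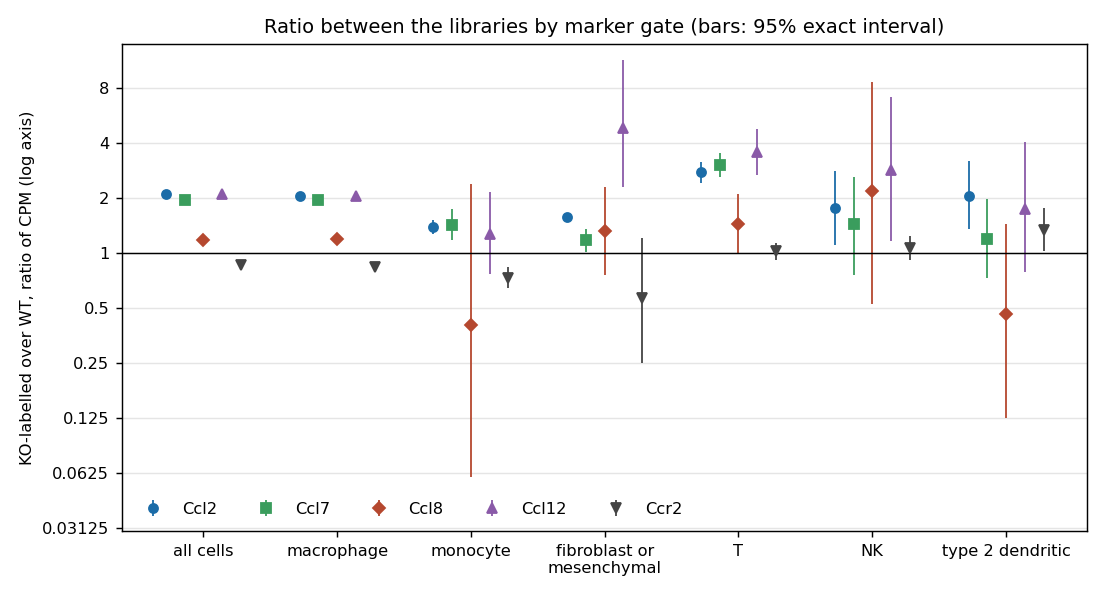
Ratio of CPM in the library labelled KO over WT for each gene (log axis) over all cells and in 6 marker gates, with bars for the 95% exact interval of counting error and a line at 1. Ccl2, Ccl7 and Ccl12 sit near 2 in all cells and macrophages, Ccl8 at 1.18 and 1.19, and Ccr2 below 1 in macrophages and monocytes.

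Ccl2 encodes the best known CCR2 ligand, and its UMIs were found in several gates. In the macrophage gate it measured 621 CPM in WT and 1284 CPM in the library labelled KO. In the monocyte gate (121 and 157 cells) it measured 1218 and 1692 CPM, and in the fibroblast or mesenchymal gate (168 and 104 cells) 731 and 1151 CPM. The ratios there were 1.39 (1.27 to 1.52) in monocytes and 1.57 (1.48 to 1.67) in fibroblasts, both under the macrophage ratio. The monocyte log2 ratio of 0.47 became 0.079 with female-type cells labelled KO against all WT cells. Of the 1779 Ccl2 UMIs of monocytes labelled KO, 525 were in 23 cells with no sex-linked UMI. In WT the Ccl2 level of fibroblasts was above that of macrophages, and in the library labelled KO it was below, at 118% (112 to 123) and 89.6% (86.1 to 93.3) of the macrophage level. The fibroblast or mesenchymal gate is called fibroblasts for short, which is a gate name here and not a cell type. In this gate 153 of 168 WT cells and 85 of 104 cells labelled KO had no sex-linked UMI. Its median depths were 13637.5 and 16891.5 UMIs, above the 9317.5 and 10615 of macrophages. Its 8 markers summed to 9275 and 9474 CPM, with Col1a1 at 313 and 571 CPM. Whether these cells are fibroblasts, tumour cells or other mesenchymal cells was not tested. The highest Ccl2 level of any gate was in mast or basophil cells, 2345 CPM in 30 WT cells and 2757 CPM in 19 cells labelled KO. These cells carried the mast cell protease gene Cma1 at 32917 and 30488 CPM. Mcpt8, 1 of the markers of this gate, measured 2453 CPM in WT and 137 CPM in the library labelled KO. The parts of mast cells and of basophils in the gate were not tested. Lower Ccl2 levels were found in T cells (68.5 and 190 CPM), then type 1 dendritic (48.3 and 148 CPM), mature dendritic (36.2 and 128 CPM), type 2 dendritic (39.1 and 80.6 CPM) and NK cells (32.7 and 58.1 CPM). In the library labelled KO the intervals of T and type 1 dendritic cells overlapped. In WT the intervals of the dendritic and NK gates overlapped, so their order is not resolved. Macrophage markers summed to 312 and 343 CPM in type 1 dendritic and 543 and 298 CPM in mature dendritic cells. They summed to 501 and 643 CPM in type 2 dendritic and 348 and 252 CPM in NK cells. The part of macrophage RNA in these low Ccl2 levels was not tested.

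Ccl7, the gene next to Ccl2, encodes a second CCR2 ligand and was weighted to macrophages and the mast or basophil gate. It measured 516 and 1015 CPM in macrophages and 2474 and 2706 CPM in the mast or basophil gate, whose intervals (2258 to 2705 and 2415 to 3021 CPM) overlapped. Monocytes had 245 and 352 CPM and fibroblasts 143 and 169 CPM, well below their macrophage counterparts. The monocyte ratio of 1.44 (1.18 to 1.76) depended on which cells were taken: its log2 value of 0.51 became -0.45 with female-type cells labelled KO against all WT cells, and -0.24 with a looser gate chosen after seeing the data.

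Ccl12, which has no human counterpart of the same name, was found mostly in the macrophage gate, at 253 and 519 CPM. Monocytes had 40.3 CPM (25.5 to 60.4) and 51.3 CPM (38.6 to 67.0), which is 15.9% and 9.88% of the macrophage level. Macrophage markers in the monocyte gate summed to 1932 and 1733 CPM, against 9963 and 9465 CPM in macrophages, and their part in this Ccl12 level was not tested. Fibroblasts had 9 WT UMIs and 37 in the other library (3.49 and 17.0 CPM), or 1.38% and 3.28% of the macrophage level. Mast or basophil cells had 0 Ccl12 UMIs in WT, where 3 counts would be 15.4 CPM, and 2 UMIs in the other library.

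Ccl8 was found at 153 CPM (149 to 156) in WT macrophages and 182 CPM (178 to 187) in those labelled KO. No other gate with at least 20 cells in both libraries passed 21.1 CPM in either. Monocytes, the gate with the highest Ccr2 level, held 4 and 3 UMIs in all (7.00 and 2.85 CPM). That is 4.58% (1.25 to 11.7) and 1.56% (0.323 to 4.57) of the macrophage level. Fibroblasts held 27 and 30 UMIs, or 6.85% and 7.58% of the macrophage level, beside macrophage markers that summed to 199 and 194 CPM there.

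T-gated cells (1148 and 457) showed large ratios at low levels. Ccl2 was 2.77 times the WT level (2.44 to 3.15), Ccl7 3.04 times (2.61 to 3.54) and Ccl12 3.58 times (2.69 to 4.78), and 3 of the 5 genes passed 2-fold there, against 0.507% of 10063 genes. In male-type T cells of both libraries only Ccl12 did (log2 1.14), and Ccl2 and Ccl7 gave 0.49 and 0.54 in place of 1.41 and 1.51. The levels of Ccl2 were 11.03% and 14.8% of those in macrophages. Macrophage markers in the T gate summed to 971 CPM in WT and 803 CPM in the library labelled KO. B or plasma cell markers summed to 5.59 and 352 CPM there, the mast cell genes Cma1 and Tpsb2 measured 7.34 and 68.0 CPM and 3.19 and 18.9 CPM, and NK markers summed to 813 and 509 CPM. Within the T gate labelled KO, Ccl2 stood at 410 CPM in the 37 cells with both kinds of sex-linked UMI at 182 CPM (161 to 206) in the 250 female-type cells and at 106 CPM in the 127 male-type cells, against 73.6 CPM in male-type WT cells. The part of these other markers and of the cells with both kinds of UMI in the ligand values was not tested.

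Ccr2, the receptor, was highest in monocytes, at 653 CPM (588 to 723) in WT and 480 CPM (439 to 524) in the library labelled KO, a ratio of 0.736 (0.642 to 0.843). Macrophages followed in WT with 440 CPM (434 to 446), above NK cells at 400 CPM (369 to 434) by a margin smaller than the NK interval is wide. In the library labelled KO macrophages had 371 CPM (364 to 377), and NK cells had 426 CPM (374 to 484), an interval that overlaps that of monocytes. NK cells (221 and 69) had a ratio of 1.07 (0.913 to 1.24) and T cells, at 180 and 184 CPM, one of 1.02 (0.922 to 1.14): both intervals include 1. Type 2 dendritic cells had 110 and 148 CPM and type 1 dendritic cells 154 and 117 CPM. Mature dendritic cells (19.9 and 20.7 CPM) and fibroblasts (8.92 and 5.07 CPM) had little. In the monocyte gate, none of the 4 genes measured passed 2-fold in the higher direction, against 1.84% of 4462 genes. In the fibroblast gate, none of the 3 genes measured did, against 0.389% of 9258 genes. The monocyte markers of the same gate differed in both directions. Ly6c2 was lower in the library labelled KO, at 2424 and 898 CPM, as was Plac8, at 4430 and 2818 CPM. Chil3 was higher, at 1146 and 1361 CPM, as were Vcan, at 331 and 499 CPM, and F13a1, at 642 and 759 CPM. Hp was nearly level, at 431 and 429 CPM. The part of these markers in the Ccr2 value was not tested.

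**Figure D2:**
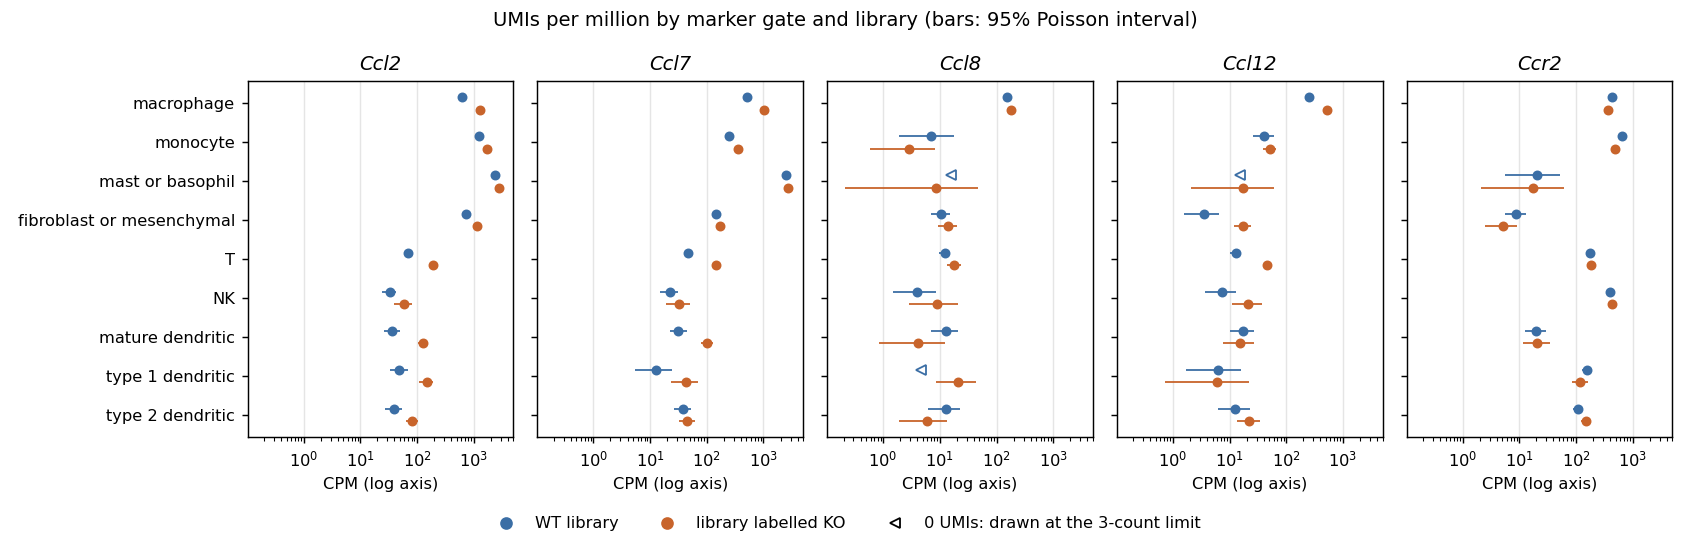
Level of each gene in CPM (log axis) by marker gate, for WT and the library labelled KO, with bars for the 95% Poisson interval and open triangles at the limit of 3 counts where no UMI was found. Ccl8 and Ccl12 are highest in macrophages, Ccl2 and Ccl7 in mast or basophil cells (30 and 19 cells), and Ccr2 in monocytes.

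Set against the Ccl2 UMIs summed over the same gate and library, the other ligands separated the gates, and did so in much the same way in both libraries. For every 100 Ccl2 UMIs, macrophages held 83.1 Ccl7 UMIs in WT and 79.0 in the other library, whereas monocytes held 20.1 and 20.8, fibroblasts 19.6 and 14.6, and mast or basophil cells 105 and 98.1. For Ccl12 the figures were 40.7 and 40.4 in macrophages, 3.30 and 3.04 in monocytes and 0.477 and 1.48 in fibroblasts. Summed over macrophages of all sex types, Ccl2, Ccl7 and Ccl12 thus kept nearly the same proportions in both libraries. Ccl8 did not: it went from 24.6 to 14.2 per 100 Ccl2 UMIs in macrophages. In male-type macrophages alone Ccl12 differed less between the libraries than Ccl2, at 247 and 407 CPM against 602 and 1272 CPM. T cells, at 69.2 and 76.0 Ccl7 UMIs and 18.9 and 24.4 Ccl12 UMIs per 100 of Ccl2, lay between monocytes and macrophages.

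**Figure D3:**
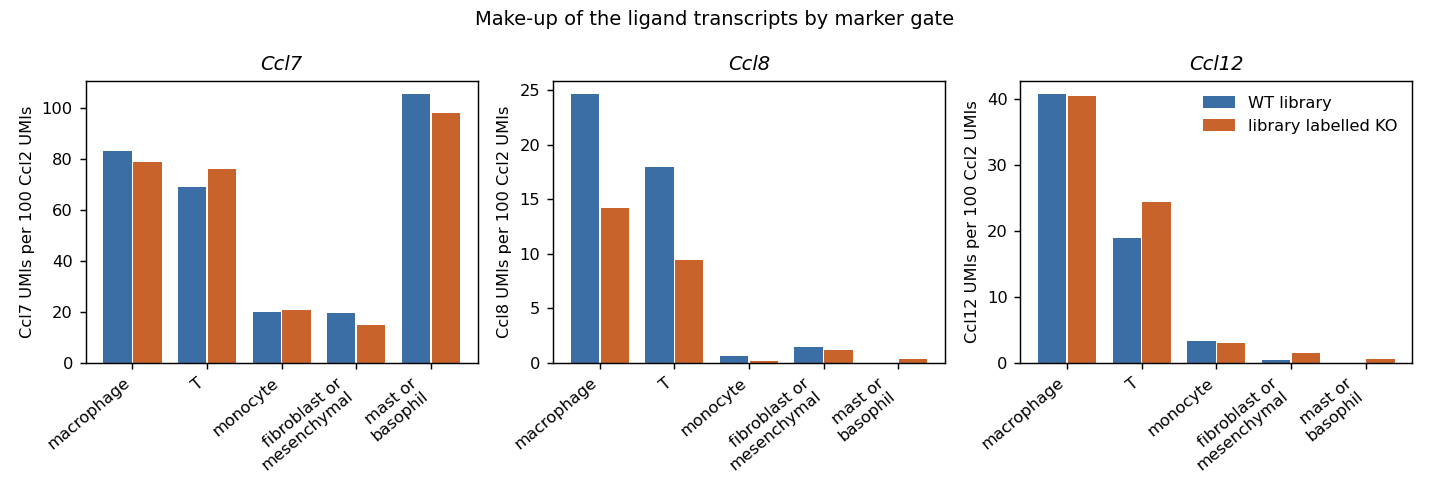
UMIs of Ccl7, Ccl8 and Ccl12 per 100 Ccl2 UMIs (bars from 0) in 5 marker gates of WT and the library labelled KO. Macrophages and T cells hold Ccl12, mast or basophil cells hold Ccl7 with at most 2 UMIs of Ccl12 and 1 of Ccl8, and the Ccl8 bars of macrophages and T cells are lower in the library labelled KO.

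In macrophages labelled KO, more cells held a UMI of each ligand, and cells with Ccl2, Ccl7 or Ccl12 held more of its UMIs. To compare shares at like depth, each cell was thinned to 1000 UMIs, which left out 62 WT and 67 other macrophages with fewer. A Ccl2 UMI was then found in 31.3% (30.0 to 32.7) of WT macrophages and 50.1% (48.3 to 51.9) of those labelled KO, with 1.93 and 2.59 UMIs per positive cell. Unthinned, at median depths of 9317.5 and 10615 UMIs, the shares were 69.0% and 84.1%. In T cells, of median depth 4171.5 and 4780, the thinned Ccl2 shares were 4.14% and 11.9%, well under those of macrophages. The thinned macrophage share was 22.8% and 37.2% for Ccl7, 13.8% and 25.3% for Ccl12, and 6.43% and 9.75% for Ccl8. Positive cells held 2.27 and 2.78 Ccl7 UMIs, 1.91 and 2.23 Ccl12 UMIs, and 2.44 and 2.27 Ccl8 UMIs. Of the ligands, only Ccl8 was thus lower per positive cell, and these means have no interval. In T cells the shares were 2.99% and 7.74% for Ccl7, 1.496% and 5.53% for Ccl12, and 1.23% and 1.77% for Ccl8. A Ccr2 UMI was found in 33.1% (31.8 to 34.5) and 27.6% (26.0 to 29.2) of thinned macrophages, and in 0 of 168 and 0 of 104 thinned fibroblasts, whose upper limits at that depth are 2.17% and 3.48%. Unthinned, at median depths of 13637.5 and 16891.5 UMIs, 7.74% and 9.62% of the fibroblasts held one. Unthinned, macrophage shares were 49.1% and 69.99% for Ccl7, 38.5% and 58.2% for Ccl12, 17.8% and 26.0% for Ccl8 and 79.5% and 72.1% for Ccr2.

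Ccl8 was the most unevenly held of the 5. The 1% of macrophages with the most Ccl8 UMIs held 46.3% of them in WT and 36.3% in the other library. The same share of cells held 22.3% and 16.5% of Ccl12 UMIs, 14.7% and 11% of Ccl7 UMIs and 11.5% and 10.3% of Ccl2 UMIs. Ccr2, at 5.19% and 5.92%, was the most even.

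Macrophages with a Ccl2 UMI more often held Ccl7 and Ccl12. In thinned cells with a Ccl2 UMI, 41.6% (39.1 to 44.2) of WT macrophages also had Ccl7, against 14.2% (13 to 15.4) of those without Ccl2. In the library labelled KO the shares were 52.5% and 21.9%. Ccl12 joined them, in 24.3% against 8.93% and in 34.0% against 16.6%. Ccl8 did so less clearly, in 8.68% (7.29 to 10.2) against 5.40% (4.65 to 6.23) in WT and in 10.7% (9.15 to 12.3) against 8.84% (7.46 to 10.4) in the other library, where the intervals overlap. The receptor did not follow Ccl2: Ccr2 was found in 32.2% of WT macrophages with Ccl2 and 33.5% of those without, and in 27.8% and 27.4% in the library labelled KO. With Ccl8 it went the other way. Of WT macrophages with a Ccl8 UMI, 15.4% (11.5 to 19.96) had Ccr2, against 34.3% (32.9 to 35.8) of those without, and in the library labelled KO 15.9% (11.9 to 20.5) against 28.8% (27.2 to 30.6).

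**Figure D4:**
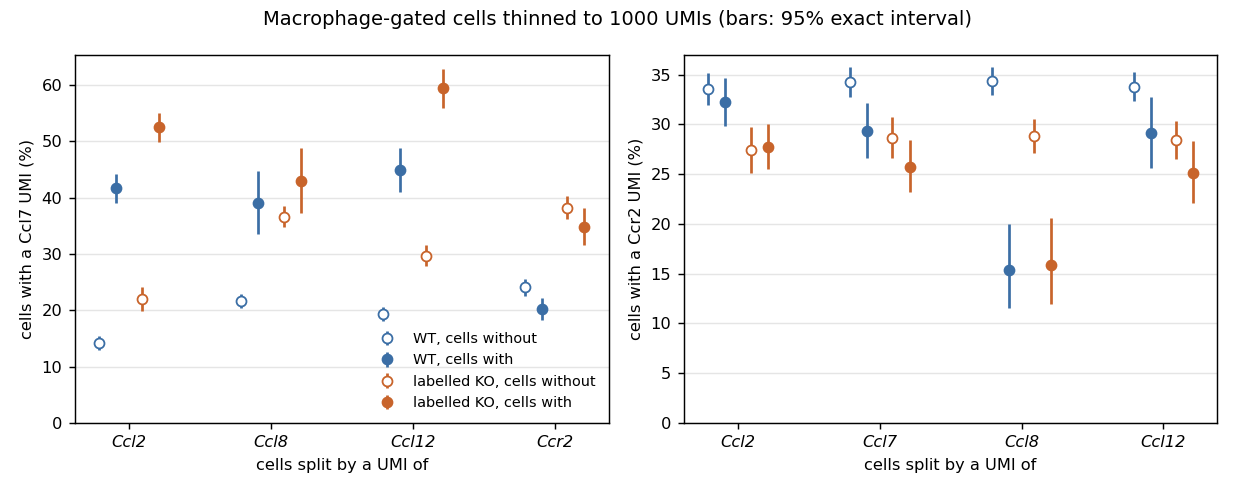
Share of macrophage-gated cells, thinned to 1000 UMIs, with a Ccl7 UMI (left) or a Ccr2 UMI (right), split by whether the cell had a UMI of the gene on the x axis, with bars for the 95% exact interval. Ccl7 is more frequent in cells with Ccl2 (41.6% and 52.5%) than without (14.2% and 21.9%), and Ccr2 is less frequent in cells with Ccl8 (15.4% and 15.9%) than without.

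Macrophage- and monocyte-gated cells (8188 in all) were ranked by short gene lists, and the top 20% of both libraries together was compared with the rest. Such a top range is not a cell type, and cells can be in more than 1 range. Of the 8 ranges, that of the resident-type list (Folr2, Fcrls, Cd163, Timd4, Selenop, Cbr2) had the highest Ccl8 level relative to the rest in both libraries. Its range held 14.2% of WT cells and 28.8% of those labelled KO, with 549 cells within 10% of the limit. Ccl8 measured 615 CPM in the range and 77.5 CPM in the rest in WT, a ratio of 7.94. In the library labelled KO it measured 352 and 107 CPM, a ratio of 3.31. Between the libraries, Ccl8 in the range was therefore lower in the one labelled KO, at 0.573 times WT (0.548 to 0.599), and outside it was higher, at 1.37 times (1.31 to 1.45). The library with more cells in the range had the lower Ccl8 level within it, beside an all-cell ratio of 1.18. The log2 ratio of Ccl8 in the range was -0.79, against -0.26 in male-type cells alone and -1.25 in the top 10%, both settings chosen after seeing the data.

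The other ligands were also higher in the resident-type range, and Ccr2 was lower. Ccl12 measured 595 CPM in the range and 196 CPM in the rest in WT, and 1027 and 296 CPM in the library labelled KO, where its ratio of 3.47 was above the 3.31 of Ccl8. Ccl7 measured 1213 and 402 CPM in WT and 1609 and 748 CPM in the other library. Both were thus above their outside level in each library, as was Ccl2, at 951 and 577 CPM and at 1619 and 1166 CPM. Ccr2 measured 337 and 459 CPM in WT and 272 and 415 CPM in the library labelled KO. Other marker lists also differed between the range and the rest, and their part was not tested. Median summed macrophage markers were 13286 and 9430 CPM in WT and 12745 and 7974 CPM in the library labelled KO. Monocyte markers were at 128 and 0 CPM and at 263 and 81.6 CPM, type 1 dendritic at 127 and 104 CPM and at 103 and 65.8 CPM, and type 2 dendritic at 269 and 564 CPM and at 178 and 607 CPM. The medians of the other lists were 0 on both sides.

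**Figure D5:**
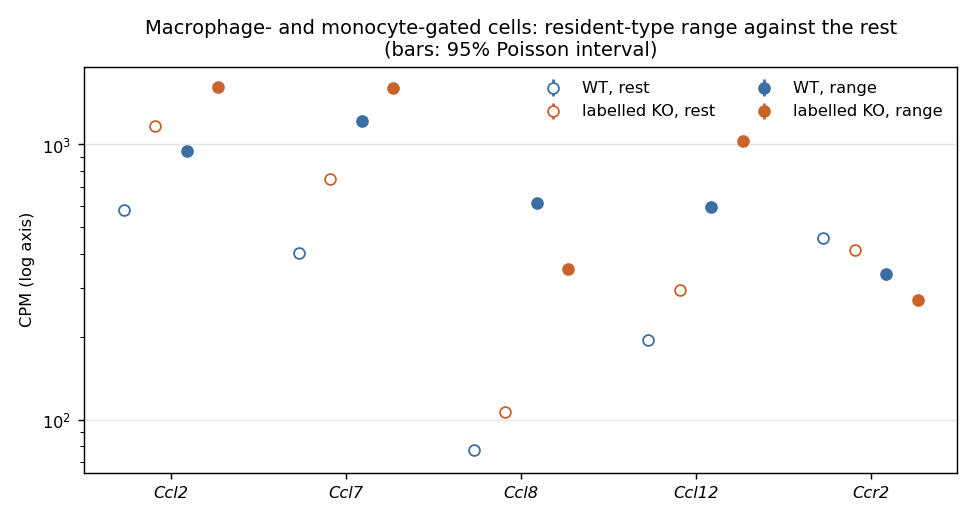
CPM (log axis) of the 5 genes in macrophage- and monocyte-gated cells inside the resident-type range (filled) and outside it (open), for WT and the library labelled KO; the 95% Poisson bars are about as small as the points. Ccl8 is the gene whose order between the libraries turns: 615 and 352 CPM inside the range, 77.5 and 107 CPM outside.

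In other ranges single members stood out. In the hypoxic range (Bnip3, Ero1a, Ndrg1, Slc2a1, Ankrd37, Egln3) Ccl12 measured 149 and 146 CPM, a ratio between the libraries of 0.984 (0.908 to 1.07), whereas outside it the ratio was 2.08 (2.03 to 2.13). Ccl2 in the same range still measured 658 and 1166 CPM. In the Arg1-type range, too, Ccl12 measured 204 and 226 CPM, a ratio of 1.11 (1.04 to 1.18), against 2.29 outside. The hypoxic range held 21.9% and 17.2% of the cells, and the Arg1-type range 18.1% and 22.8%. In the interferon gamma range (Gbp2, Gbp5, Ly6i, Cxcl9, Serpina3g) Ccl8 was higher than outside, by 2.90 and 2.49 times, and Ccl2 lower, at 0.663 and 0.646 times. The Ear2-type range (Ear2, Asgr2, Mgl2, Ccl17, Retnla) was the receptor-rich one: Ccr2 measured 568 and 472 CPM in it against 395 and 356 CPM outside, and all 4 ligands were lower there in both libraries. It held 24.8% of WT cells and 12.7% of those labelled KO. Cycling cells had Ccr2 at 444 and 374 CPM, next to 442 and 373 CPM outside.

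Among macrophages, the direction of each member was the same in male-type cells alone as in all cells. Ccl2 measured 602 CPM in WT male-type and 1272 CPM in KO-labelled male-type macrophages, with 1314 CPM in KO-labelled female-type ones. Ccl7 measured 504, 969 and 1032 CPM in the same order, and Ccl8 159, 174 and 175 CPM. Ccl12 differed most between the sex types of the library labelled KO, at 407 CPM in male-type and 558 CPM in female-type macrophages, against 247 CPM in WT male-type ones. Ccr2 measured 435, 354 and 390 CPM. In the monocyte gate of the library labelled KO, Ccl2 stood at 1502 CPM in 46 male-type cells, 1287 CPM in 82 female-type cells and 5137 CPM in 23 cells with no sex-linked UMI, against 1253 CPM in 82 male-type WT cells.

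Other genes of the chemokine system were taken from 3 lists. Of the 16 other CC ligands, 12 had at least 50 UMIs over all cells, 7 of them higher and 5 lower in the library labelled KO. Of all genes measured, 45.1% were higher. Their median log2 ratio was 0.06, against -0.01 for all genes. Only Ccl3 and Ccl4 among them passed 2-fold, as did 0.288% of all genes in the higher direction: Ccl3 measured 128 and 416 CPM, and Ccl4 415 and 1146 CPM. Of 13 receptors, 10 were measured, 7 higher and 3 lower, none past 2-fold. Ccr1 measured 106 and 124 CPM over all cells, and Ccr3 had 36 and 35 UMIs in all. Of the 28 genes for inducers of these ligands and for monocyte traffic, 14 were higher and 14 lower, none past 2-fold. In macrophages the CC ligand list again held only Ccl3 and Ccl4 past 2-fold, at 120 and 387 CPM and at 381 and 1193 CPM, against 0.321% of all genes. The list median there was 0.15, against 0.00 for all genes. In the monocyte gate 4 of 7 measured CC ligands of the list passed 2-fold in the higher direction, against 1.84% of 4462 genes. In the fibroblast gate 2 of 7 did, against 0.389% of 9258 genes, and in T cells 0 of 10, against 0.507% of 10063 genes.

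The genes around the ligand cluster had other sources. Ccl11, which encodes an eosinophil attractant and lies between Ccl7 and Ccl12, had 27 and 46 UMIs in all, 18 and 19 of them in the fibroblast gate. That gate also held Ccl2, at 731 and 1151 CPM. Of the 46 Ccl11 UMIs labelled KO, 21 were in 2 ungated cells. Ccl1, on the minus strand at chr11:82176657-82305690, had 76.2% of its 1560 WT UMIs and 66.0% of its 727 UMIs labelled KO in T cells. Its T cell level was 190 CPM in WT and 168 CPM (154 to 184) in the library labelled KO. The mast or basophil gate, the highest for Ccl2 and Ccl7, held 2 WT Ccl1 UMIs (10.3 CPM) and 25 labelled KO. The latter measured 214 CPM (139 to 316), an interval that overlaps that of T cells labelled KO.

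Over the 16 points made by 8 gates and 2 libraries, the genes whose log2 level ran most like each member were listed from 12883 genes. These correlations describe gates that share libraries and depth, and carry no test. For Ccl2 they were Cmklr1 (r = 0.936), Inhba, Tnfaip6, Fn1 and Ctsl (r = 0.914). For Ccl7 they were Cpd (r = 0.925), Stab1, Ang, Sash1 and Cstb. Ccl2 and Ccl7 themselves correlated at r = 0.895. Ccl8 ran most like Itga9 (r = 0.936), Fat3, Cracr2b, Kcnj10 and Scamp5, and Ccl12 like Pf4 (r = 0.958), Ms4a7, Abcc3 and AU022793. Ms4a7 is itself a marker of the macrophage gate. Ccr2 ran most like Ncf4 (r = 0.958), Irak2, Myo1f and Atp8b4 (r = 0.951), and hardly like Ccl2 (r = 0.040).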

How the data were processed

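UMI counts, not normalized, were deposited as 1 matrix per library, made with Cell Ranger 8.0.1 per the file headers; mm10 and Seurat 3 are named in the submitters' processing notes. The labels describe a microwell chip. Barcodes with at least 500 UMIs, 200 genes and at most 25% mitochondrial UMIs were kept, without the 5% with the highest Scrublet scores in each library (457 and 319), because its own threshold marked 0 and 1 barcodes. A cell's gate is the marker list with the highest share of genes found, with at least 3 genes and a lead of 0.2; this scoring was set after seeing the data. Gates with 20 cells in both libraries were compared. Counts were summed per gate and library and given as CPM with exact Poisson intervals, ratios with exact conditional intervals, log2 ratios after adding 5 CPM, and shares with Clopper-Pearson intervals. UMIs are molecules, yet intervals cover counting error only. The 5 genes are always named, as are Ccl11, Ccl1, Ccr1 and Ccr3; of other lists, genes past 2-fold (at most 3 each way); and the 5 genes most correlated with each member. Some genes that this rule names are not reported here. The members and lists were chosen with earlier results of these data known. The log2 ratios and ratio intervals were tested on simulated counts already summed per library. Python 3.11.15 and scanpy 1.11.5 (Leiden clusters) were used. Alternatives are given in the closing section.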

Additional observations from a re-analysis of the deposited data

Results flagged for a closer look

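Ccr2 was lower in the library labelled KO than in WT in macrophages (0.843 times) and in monocytes (0.736 times), and higher in type 2 dendritic cells (1.35 times, 1.02 to 1.77, from 96 and 127 UMIs). The difference between the gates was not tested, and with a looser gate the log2 ratio in type 2 dendritic cells was -0.084 in place of 0.41.

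Barcodes that failed the filters held member transcripts. All 1060 of them are in the library labelled KO, with a median of 211 UMIs and 256458 UMIs in all, while no WT barcode failed. They measured 1907 CPM of Ccl2 (1741 to 2083), 1100 CPM of Ccl7 (975 to 1236), 534 CPM of Ccl8 (448 to 632) and 1092 CPM of Ccl12 (968 to 1227). These 4 levels are above those of the kept cells of the same library, 1087, 772, 131 and 372 CPM. Ccr2, at 230 CPM (175 to 297), was below its 323 CPM in the kept cells.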

How the results depend on the processing

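Over all cells, the 5 log2 ratios kept their direction in 70 of 70 recomputed values, 45 of which lay within the counting interval of the main value. The other 25 follow, for main values of 1.07 (Ccl2), 0.97 (Ccl7), 0.22 (Ccl8), 1.05 (Ccl12) and -0.21 (Ccr2). Thinning every cell to 1000 UMIs gave 1.13 for Ccl2, 1.01 for Ccl7, 0.48 for Ccl8 and 1.14 for Ccl12. A pseudocount of 20 CPM gave 1.05 for Ccl2, 0.94 for Ccl7 and 1.00 for Ccl12. Male-type cells of both libraries gave 1.11 for Ccl2, 0.92 for Ccl7, 0.081 for Ccl8, 0.78 for Ccl12 and -0.25 for Ccr2. KO-labelled female-type cells against all WT cells gave 1.10 for Ccl2, 1.05 for Ccl7, 1.21 for Ccl12 and -0.088 for Ccr2. Without cells of both sex types Ccl2 gave 1.10. Without the 1% of cells highest in the gene the values were 1.11 for Ccl2, 1.04 for Ccl7, 0.53 for Ccl8 and 1.16 for Ccl12. The WT gate shares gave 1.02 for Ccl2 and 0.94 for Ccl7. For Ccl8, no doublet removal gave 0.32 and leaving out the highest 10% gave 0.27. The number of genes past 2-fold was 47 with a minimum of either 50 or 200 UMIs.

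Within gates, 34 of 605 recomputed values changed direction, 28 of them where the interval of the main ratio already included 1. For the other 6, given next, that interval excluded 1, and the cause was not tested. Besides these 6, 94 values lay outside the interval of the main value. Ccl7 gave -0.52 in fibroblasts after thinning and, in monocytes, -0.45 with female-type cells labelled KO and -0.24 with a lead of 0.1 over the next list. That lead also gave -0.18 for Ccl7 in type 1 dendritic cells and -0.084 for Ccr2 in type 2 dendritic cells. Ccl2 gave -0.23 in mature dendritic cells with male-type cells alone, from 37 and 5 UMIs. The looser lead was chosen after seeing the data, as were the settings for the resident-type range. None of 15 recomputed values in that range changed direction, but 11 lay outside the interval of the main value. They ran from 0.46 to 0.95 for Ccl2 (main 0.77), 0.13 to 0.68 for Ccl7 (main 0.41) and -1.25 to -0.26 for Ccl8 (main -0.79). For Ccl12 they ran from 0.51 to 0.90 (main 0.78) and for Ccr2 from -0.43 to -0.28 (main -0.30). No paired analysis was possible because each group is 1 library. Depth limits Ccl8 outside macrophages, where gates held at most 77 UMIs in a library apart from ungated cells.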

Other observations

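Gates with fewer than 20 cells in 1 library were described but not compared. Neutrophil-gated cells (10 WT and 74 KO-labelled) held 3 and 29 Ccl2 UMIs, 0 and 16 Ccl12 UMIs and 2 and 9 Ccr2 UMIs. Osteoclast-like cells (13 and 20) held 0 and 20 Ccl2 UMIs, where 3 counts in WT would be 15.9 CPM and the other library measured 58.4 CPM. Plasmacytoid dendritic cells (17 in each library) had Ccr2 at 110 and 75.1 CPM, from 12 and 11 UMIs.

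Ungated cells (1503 and 969), which lacked a clear lead of any marker list, had Ccl2 at 412 and 887 CPM and Ccl12 at 88.5 and 186 CPM, ratios of 2.15 and 2.10. Ccl8 in them was 73.2 and 63.6 CPM, a ratio of 0.869 (0.788 to 0.959), so it was lower in the library labelled KO there and higher in macrophages.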
